A study of Mus musculus with 28 samples.

Results

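The proliferin genes Prl2c2, Prl2c3 and Prl2c5 are 3 of the 50600 genes in the table, and were taken as the rows that carry these names. They lie on mouse chromosome 13, and their coordinates here are those of the deposited table (mm10). Prl2c2 (ENSMUSG00000079092) spans chr13:12996132-13005383 and Prl2c3 (ENSMUSG00000056457) chr13:12790822-12800078, both on the minus strand, and Prl2c5 (ENSMUSG00000055360) spans chr13:13182715-13191923 on the plus strand. A further relative, Prl2c1 (ENSMUSG00000062551), was not a member and read 1 in 2 libraries and 0 in the other 26.

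The libraries came from mouse embryonic fibroblasts (MEFs), labelled wild type, which in the study's methods carried the Oct4-GFP reporter OG2 and came from crosses of OG2 males with 129 females. There were 14 groups of 2 libraries. MEF was untreated, and MEF p38i had been kept in SB203580, an inhibitor of the kinase p38. The other 12 groups had received retroviruses for Sox2, Klf4 and Oct4 and were sampled on days 1, 3, 5 and 7 of induction towards pluripotency in iCD1 medium. In DMSO they had the solvent alone (the labels call this group a control and name no solvent), in p38i the inhibitor was present during induction, and in pre-p38i it had been given to the MEFs before induction. Neither source says whether the 2 libraries of a group, or the libraries of different days, came from separate cultures, so p-values here measure the spread between these libraries, which may be technical.

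Proliferins are secreted glycoproteins of the prolactin family. They were first known from growth-stimulated mouse fibroblasts and are made in large amounts by the trophoblast giant cells of the placenta, where they act on blood vessel growth. Their carbohydrate carries mannose 6-phosphate, and the mannose 6-phosphate and IGF2 receptor (Igf2r) is one of the receptors they bind. Transcription factors of the AP-1 family (Fos and Jun proteins) are known to act on proliferin promoters.

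The sequences are shown first because they decide which values can be told apart. The coding sequences of Prl2c2 and Prl2c3, from GENCODE M21 on GRCm38, are each 675 nt and differ by 3 substitutions, T14C, C200A and T319G, counted from the A of the start codon, with the base of Prl2c2 first. Their identity was 99.6%. The coding sequence of Prl2c5 is 669 nt, with an identity of 96.1% to Prl2c2 and 96.0% to Prl2c3. The 90 bases below, coding bases 316 to 405 in exon 4, hold the last of the 3 substitutions, and capitals mark the 5 positions at which the 3 genes differ. They lie at chr13:12997378-12997467 (minus strand), chr13:12792085-12792174 (minus strand) and chr13:13190586-13190675 (plus strand).
Prl2c2: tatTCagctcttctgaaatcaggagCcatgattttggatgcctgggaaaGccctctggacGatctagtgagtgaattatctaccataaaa
Prl2c3: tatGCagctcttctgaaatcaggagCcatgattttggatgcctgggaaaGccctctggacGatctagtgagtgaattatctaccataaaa
Prl2c5: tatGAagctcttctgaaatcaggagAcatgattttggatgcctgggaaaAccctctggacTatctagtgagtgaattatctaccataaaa
Of the 768 windows of 75 bases in the Prl2c2 transcript, 547 (71.2%) were in the Prl2c3 transcript letter for letter, while 63 (8.20%) were in that of Prl2c5. A read inside a shared window fits both genes, so the split between Prl2c2 and Prl2c3 rests on how reads were shared out upstream. Their sum rests on it less, though other genes share windows with the 3 members too. Counted along the other gene's own transcript, 170 windows of Gm7040 and 119 of Prl2c1 matched at least 1 member. Gm7040 is not among the genes listed in the table. The sum of the 3 members is therefore the value followed here, with Prl2c2 and Prl2c3 beside it.

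The promoter table from RefSeq (GRCm38.p6) held 2 of the 3 members, Prl2c3 and Prl2c5. Their 250 bases before the start are shown because a known family of proliferin regulators, AP-1, was followed in the data. Capitals mark TATATAA and TGANTCA, a looser form of the AP-1 consensus (TGAGTCA or TGACTCA), searched on both strands, and no position was matched by both. The windows are chr13:12800080-12800329 (minus strand) for Prl2c3 and chr13:13182466-13182715 (plus strand) for Prl2c5.
Prl2c3: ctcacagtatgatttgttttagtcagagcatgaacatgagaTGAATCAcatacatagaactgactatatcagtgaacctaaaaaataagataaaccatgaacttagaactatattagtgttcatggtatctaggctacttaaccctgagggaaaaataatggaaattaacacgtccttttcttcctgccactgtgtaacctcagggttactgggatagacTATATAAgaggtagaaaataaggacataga
Prl2c5: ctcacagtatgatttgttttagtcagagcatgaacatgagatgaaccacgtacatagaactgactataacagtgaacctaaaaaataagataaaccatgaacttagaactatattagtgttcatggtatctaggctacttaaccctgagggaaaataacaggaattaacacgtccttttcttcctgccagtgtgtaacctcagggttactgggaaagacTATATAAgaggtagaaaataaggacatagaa
TGANTCA began 209 bases before the start of Prl2c3, as TGAATCA, which is not the AP-1 consensus, and was not in the window of Prl2c5. TATATAA began 30 bases before the start of Prl2c3 and 31 bases before that of Prl2c5. Among 32851 promoter windows of the same length, 6.75% held TGANTCA, 4.46% held TGAGTCA or TGACTCA, and 3.04% held TATATAA. The 2 windows were identical in 241 of 251 aligned columns (96.0%).

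The deposited values are whole numbers read as TPM rounded down, that is, transcript abundances already divided by gene length and scaled to a common total per library. The 28 libraries summed to between 991287 and 992537, and the depth behind them is unknown. Between 12454 and 14170 genes read at least 1 in a library, and mitochondrial genes took 1.95% to 6.18% of the total. Prl2c5 stayed at the bottom of this scale, with a highest value of 2, a mean of 0.5 and a reading of at least 1 in 11 libraries. It was under the mean of 1 that the test required and was not tested alone. Nearly the whole of the sum was thus Prl2c2 and Prl2c3, both of which passed that filter.

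In untreated MEFs proliferin RNA was present at a low level. The sum of the 3 genes read 33 and 24 in the 2 MEF libraries, made up of 15 and 8 for Prl2c2 and 18 and 16 for Prl2c3. In the MEF p38i libraries the sum read 0 and 1, where Prl2c3 and Prl2c5 were listed at 0 in both and Prl2c2 at 0 and 1. The groups did not overlap, and the difference in the sum was -4.37 on the log2(value + 1) scale. It became -6.41 with a pseudocount of 0.1. The genes were chosen on this contrast, among others, so it carries no test. Among all genes 8.15% were called lower in it and 9.73% higher.

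**Figure D1:**
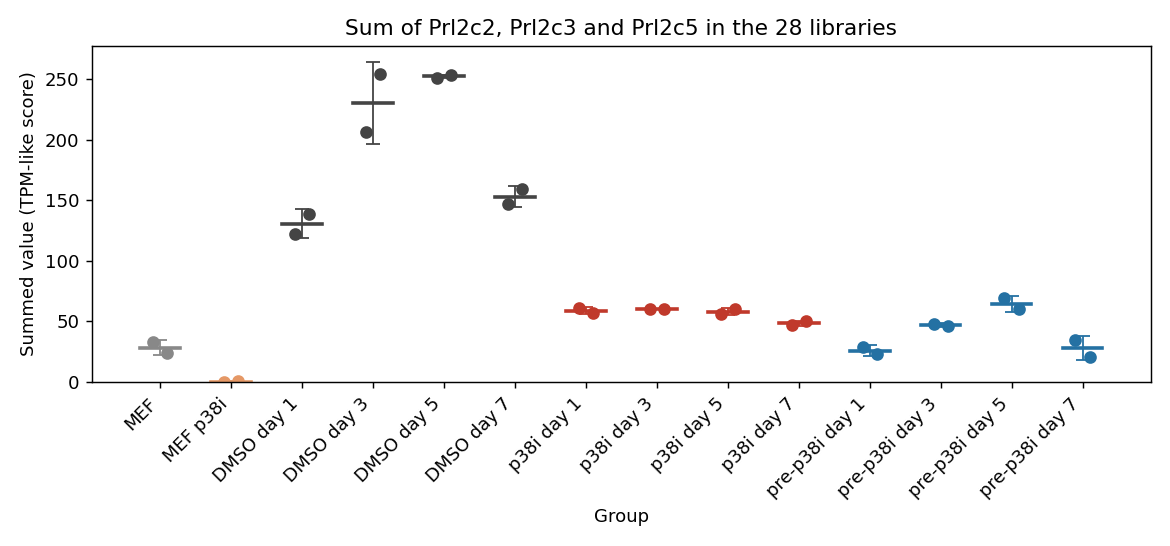
Sum of the values of Prl2c2, Prl2c3 and Prl2c5 (vertical axis, TPM-like score) in each group (horizontal axis); points are the 28 libraries, horizontal lines the means and error bars the SD of 2 libraries. The 8 DMSO libraries sit between 122 and 254, above every library of every other group, and the 2 MEF p38i libraries sit at 0 and 1.

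During induction proliferin RNA in DMSO was above that of MEFs and was highest in the middle of the course. The sum read 122 and 139 on day 1, 206 and 254 on day 3, 251 and 253 on day 5, with 147 and 159 by day 7. The DMSO day 1 libraries lay above both MEF libraries, with a difference of 2.17 on the log2 scale, in a contrast in which 36.6% of all genes were called higher. Later steps were 0.81 from day 1 to day 3, 0.14 from day 3 to day 5 and -0.72 from day 5 to day 7. The day 3 and day 5 libraries overlapped, and the step between them was -0.011 without DMSO day 3 replicate 1. DMSO libraries were part of the contrasts on which the genes were chosen, and these steps are given as a description.

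Prl2c2 and Prl2c3 did not follow the same course in DMSO. Prl2c2 read 61 and 70 on day 1, 132 and 159 on day 3, 180 and 179 on day 5, with 103 and 114 by day 7. Prl2c3 read 60 and 69, then 74 and 93, then 70 and 72, and at the end 43 and 43. Prl2c2 was thus highest on day 5, while the highest libraries of Prl2c3 were those of day 3 and its lowest those of day 7. The share of Prl2c2 in the sum of Prl2c2 and Prl2c3 was 50.4% in both libraries of day 1 and 64.1% and 63.1% in those of day 3. It then reached 72.0% and 71.3% by day 5 and was 70.5% and 72.6% at the end. In MEFs it was 45.5% and 33.3%. Since the transcripts share most of their 75-base windows, this share was not tested and depends on how reads were divided.

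**Figure D2:**
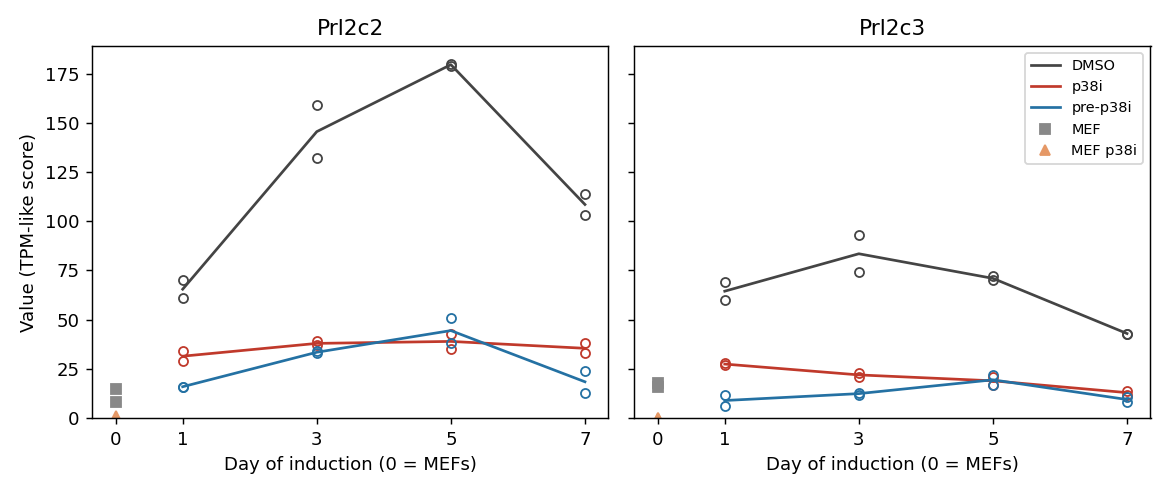
Values of Prl2c2 (left) and Prl2c3 (right) on the TPM-like scale (vertical axis) by day of induction (horizontal axis), with MEFs at 0; open circles are libraries, lines join group means, and squares and triangles are MEF and MEF p38i. Prl2c2 in DMSO climbs to 180 and 179 on day 5, whereas in p38i and pre-p38i no library of Prl2c2 is above 51.

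With the inhibitor present during induction, the proliferin sum differed little from day to day. In p38i the sum read 61 and 57 on day 1, 60 and 60 on day 3, 56 and 60 on day 5, with 47 and 50 by day 7. These means came to 45.2%, 26.1%, 23.0% and 31.7% of those of DMSO on the same days. Every p38i library was above both MEF libraries and below every DMSO library. No step along the course passed the test, limma on log2(value + 1) with Benjamini-Hochberg adjustment over all 13229 features tested. The step from day 1 to day 3 was 0.02 (95% interval -0.47 to 0.52, adjusted p = 0.985), that from day 3 to day 5 was -0.05 (-0.54 to 0.44, adjusted p = 0.938), and that from day 5 to day 7 was -0.25 (-0.75 to 0.24, adjusted p = 0.610). In the same test 41.9%, 15.8% and 6.23% of all genes were called at these steps. The genes behind the sum differed in their values. Prl2c2 read 34 and 29 on day 1, 39 and 37 on day 3, 35 and 43 on day 5, with 33 and 38 by day 7. Prl2c3 read 27 and 28, 21 and 23, 21 and 17, and 14 and 12, so that its day 7 libraries were below those of every earlier day. No adjacent step of either gene passed the test, and that of Prl2c3 from day 5 to day 7 was -0.51 (95% interval -0.94 to -0.08, limma adjusted p = 0.163). For the sum, the highest day mean was 1.24 times the lowest in p38i, 1.93 times in DMSO and 2.48 times in pre-p38i.

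On days 5 and 7 p38i was below DMSO. These comparisons were not among those that led to the choice of the genes. DMSO libraries had a part in that choice, and the step between these days in DMSO was left untested for this reason. The tests against DMSO are therefore not fully independent of the choice. On day 5 the sum read 56 and 60 in p38i and 251 and 253 in DMSO, a 4.29-fold lower level on the log2(value + 1) scale (-2.10 ± 0.24 (SE) on the log2 scale, n = 2 per group, limma adjusted p = 1.8e-06). On day 7 it read 47 and 50 against 147 and 159, which was 3.11-fold lower (-1.64 ± 0.24, limma adjusted p = 2.2e-05). Prl2c2 and Prl2c3 each passed the test on both days. Prl2c2 differed by -2.18 on day 5 and -1.59 on day 7, and Prl2c3 by -1.86 and -1.66. Among all genes tested, 18.7% were called lower on day 5 and 17.6% on day 7. The difference itself did not pass a test of change between these days (0.46, limma adjusted p = 0.473). On days 1 and 3, whose DMSO libraries were used in choosing the genes, the differences in the sum were -1.13 and -1.91, with 12.6% and 16.2% of all genes called lower.

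When the inhibitor had been given before induction, proliferin RNA was lower than in DMSO throughout and highest on day 5. The pre-p38i sum read 29 and 23 on day 1, 48 and 46 on day 3, 69 and 60 on day 5, with 35 and 21 by day 7. The day 1 libraries overlapped with untreated MEFs, at 33 and 24, and lay above MEF p38i, at 0 and 1. The means came to 19.9%, 20.4%, 25.6% and 18.3% of those of DMSO. On days 1 and 3, on which the genes were chosen, the differences were -2.29 and -2.26 on the log2 scale, with no test, and 6.24% and 6.87% of all genes were called lower.

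In the libraries of days 5 and 7 the pre-p38i sum was again below DMSO. On day 5 it was 3.87-fold lower (-1.95 ± 0.24 (SE) on the log2 scale, n = 2 per group, limma adjusted p = 4.4e-06), and on day 7 it was 5.47-fold lower (-2.45 ± 0.24, limma adjusted p = 1.6e-07). Prl2c2 read 51 and 38 on day 5 and 24 and 13 on day 7. Prl2c3 read 17 and 22, then 11 and 8. Each gene alone passed the test on both days, and no library overlapped with DMSO. Of all genes, 11.3% were called lower on day 5 and 14.5% on day 7. Both treatments were set against the same DMSO libraries, so their differences are not independent of each other. As for p38i, the tests against DMSO are not fully independent of the choice of the genes.

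**Figure D3:**
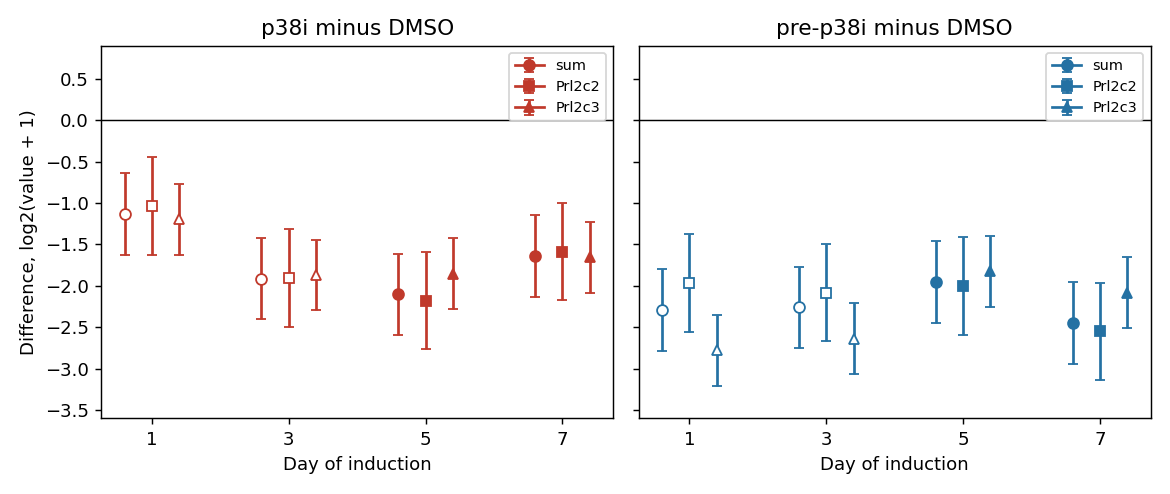
Difference from DMSO of the same day on the log2(value + 1) scale (vertical axis) by day of induction (horizontal axis), for p38i (left) and pre-p38i (right); circles are the sum, squares Prl2c2 and triangles Prl2c3, and bars are 95% intervals of the limma fit. Filled symbols (days 5 and 7) were tested and open symbols (days 1 and 3) are a description. All points are below 0, with the sum between -1.13 and -2.45.

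Set against each other, the treatments differed on day 7 and not detectably on day 5. On day 5 the sum read 56 and 60 in p38i and 69 and 60 in pre-p38i, a difference of -0.15 (95% interval -0.64 to 0.34, limma adjusted p = 0.636). On day 7 p38i, at 47 and 50, was 1.76-fold above pre-p38i, at 35 and 21 (0.81 ± 0.24 (SE) on the log2 scale, 95% interval 0.32 to 1.31, n = 2 per group, limma adjusted p = 0.00655). This call depended on pre-p38i day 7 replicate 2. Without that library the difference was 0.46 and the adjusted p from limma 0.159. Prl2c2 passed on day 7 (0.96, limma adjusted p = 0.00706) and Prl2c3 did not (0.43, limma adjusted p = 0.0866). Of all genes, 54.3% were called in either direction on day 7 and 47.5% on day 5. The change of this difference from day 5 to day 7 did not pass the test (0.96, limma adjusted p = 0.0696).

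Ordered by the mean of the sum, the 14 groups ran from DMSO day 5 (252 ± 1.41 (SD, n = 2)), day 3 (230 ± 33.9), day 7 (153 ± 8.49) and day 1 (130.5 ± 12.0) down to the MEF p38i libraries. The next after DMSO was pre-p38i day 5 (64.5 ± 6.36), whose libraries overlapped with those of p38i days 3, 1 and 5 at means of 60, 59 and 58. Below these stood p38i day 7 (48.5 ± 2.12) and pre-p38i day 3 (47 ± 1.41), which overlapped. MEF (28.5 ± 6.36), pre-p38i day 7 (28 ± 9.90) and pre-p38i day 1 (26 ± 4.24) came next and also overlapped. Since several neighbouring groups overlapped, the levels did not form 14 separate steps. All DMSO groups stood above the rest, and among them only days 5 and 3 overlapped. The DMSO day 3 libraries lay at least 47 above those of day 7, and these at least 8 above those of day 1.

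Markers of cell types moved with the treatments too. Fewer cells of a type and less RNA per cell cannot be told apart in bulk libraries. Of 7 macrophage markers 6 were tested, and Ptprc, which all white blood cells carry, read at most 2. The summed macrophage list read 379 and 373 in DMSO day 5, 196 and 216 in p38i and 73 and 76 in pre-p38i. In p38i 5 of the 6 were called lower and 1, Cd68, higher, beside 18.7% and 7.87% of all genes. In pre-p38i 6 were lower, beside 11.3% of all genes. On day 7 the list read 173 and 180 in DMSO and 204 and 176 in p38i, which overlapped. In that comparison C1qa (-1.96), Adgre1 (-1.08) and C1qb (-0.87) were called lower and Cd68 (0.56) higher in p38i. Of all genes, 17.6% were called lower and 16.5% higher in it. The overlap of the summed level rested on Cd68 and Lyz2, the most abundant genes of the list. In pre-p38i day 7 the list read 42 and 31, with 6 of 6 lower, beside 14.5% of all genes. Across the whole course it lay between 173 and 395 in DMSO, 163 and 238 in p38i, and 31 and 161 in pre-p38i, and in MEFs it read 251 and 246 without and 182 and 175 with p38i. The part of these cells in the proliferin values was not tested.

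The summed level of fibroblast markers was highest in MEFs, where proliferin RNA was low, but single markers differed from the sum. The 12 genes of the list (collagens, Thy1, Pdgfra and others) summed to 12761 and 12650 in MEFs, where the proliferin sum was 33 and 24, and to 7206 and 6997 in DMSO day 1, where it was 122 and 139. In DMSO day 1 against MEF, the median difference of the 12 was -1.06, against 0.14 over all genes. Of the 12, 2, Col3a1 and Twist1, were called higher, beside 36.6% of all genes. Twist1 read 74 and 74 in MEF and 189 and 179 in DMSO day 1. Col3a1 read 247 and 284 in MEF and 632 and 607 in DMSO day 3. On DMSO day 7 the list summed to 1994 and 2107. On p38i day 7 it summed to 2285 and 2305, and on pre-p38i day 7 to 1278 and 1228. Compared with DMSO on day 7, 3 of 12 were higher and 2 lower in p38i, near the 16.5% and 17.6% of all genes. In pre-p38i 12 of 12 were lower, beside 14.5% of all genes. On day 5 the counts were 2 higher and 8 lower in p38i, beside 7.87% and 18.7% of all genes. In pre-p38i 10 were lower on day 5, beside 11.3%. In MEF p38i 1 was higher and 7 lower than in MEF, beside 9.73% and 8.15% of all genes. The list summed to 8393 and 8450 there. The 6 epithelial markers moved in opposite directions on day 7, where the proliferin sum was lower in both treatments. In p38i 6 were lower, beside 17.6% of all genes, and in pre-p38i 6 were higher. In pre-p38i 14.3% of all genes were called higher than in DMSO on day 5 and 15.4% on day 7. Among 5 endothelial markers Emcn was at 0 in every library, and Pecam1 and Cdh5 read at most 2 and 1. Kdr read between 1 and 9. Tek was listed at 0 in the 4 MEF libraries and read 18 and 17 in DMSO day 1 and 57 and 60 in DMSO day 5, where p38i read 61 and 56 and pre-p38i 66 and 67. The list summed to between 2 and 70. Tek was called lower in p38i on days 1 and 3 (-0.51 and -0.42) and higher in pre-p38i on day 3 (0.29), and neither Tek nor Kdr passed on days 5 and 7. The part of any of these in the proliferin values was not tested.

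Markers of trophoblast, the placental source of proliferins, were close to absent. Of 10 trophoblast genes 6 were at 0 in all 28 libraries and the list summed to between 0 and 10 per library. Plet1, the 1 gene of the list that could be tested, read at most 10.

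Most of the prolactin family was at or near 0 as well. Of 24 other family genes 23 were in the table and 17 of these were at 0 in every library. Prl3d3, a placental lactogen gene whose reads may be shared with near-identical neighbours, was the 1 gene with a mean of at least 1 (2.57). It reached that mean through the DMSO libraries, with a mean of 0.9 over the other 20, so its values are given without a test. Its value was 0 in the 4 libraries of MEFs, with or without p38i, and it read 12 and 11 in DMSO day 1, 4 and 6 in day 3, 6 and 7 in day 5, and 5 and 3 in day 7. In p38i it read 3 and 5, 2 and 2, 1 and 0, and 1 and 0 on these days, and in pre-p38i 2 and 0, 1 and 0, 1 and 0, and 0 and 0. Like the proliferin sum, Prl3d3 was highest in DMSO on every day, at values of a few units.

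Igf2r, the receptor that proliferin is known to bind, differed from DMSO in opposite directions under the treatments on days 5 and 7. In DMSO it read 127 and 115 on day 1, 145 and 133 on day 3, 103 and 114 on day 5, with 70 and 73 by day 7. In p38i it read 137 and 130 on day 5 and 104 and 103 on day 7, above DMSO by 0.30 (limma adjusted p = 0.00064) and 0.53 (limma adjusted p = 7.9e-07) on the log2 scale. In pre-p38i it read 67 and 68 on day 5 and 50 and 49 on day 7, below DMSO by differences of -0.67 and -0.52 (limma adjusted p = 5.7e-08 and 8.8e-07). MEF p38i, at 94 and 93, did not differ detectably from MEF at 87 and 90 (limma adjusted p = 0.399). On days 5 and 7 proliferin RNA was thus lower in both treatments while the RNA of its receptor was higher in one and lower in the other. On days 1 and 3 Igf2r in p38i read 123 and 123 and 141 and 136, and did not pass the test against DMSO (0.03, limma adjusted p = 0.838, and -0.0041, limma adjusted p = 1), where the proliferin sum was lower in p38i by its values. In pre-p38i Igf2r was below DMSO on days 1 and 3 too, at 93 and 96 and then 96 and 94. The differences were -0.35 and -0.54 (limma adjusted p = 0.0004 and 1.6e-06), and both calls were lost when only the compared groups were fitted. Of the 5 tested genes for receptors and for the enzymes that make mannose 6-phosphate, 3 were higher in p38i on day 7. Among all genes 16.5% were. In pre-p38i on day 7, 1 of the 5 was lower, near the 14.5% of all genes. Prlr, the prolactin receptor, read at most 2.

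Among the 8 AP-1 genes, Fosl1 and Junb were the members lower in both treatments late in the course. Fosl1 read 37 and 43 in DMSO day 5, 26 and 21 in p38i and 22 and 24 in pre-p38i. On day 7 it read 26 and 32, 18 and 17, and 11 and 11. Its differences were -0.75 and -0.69 in p38i and -0.77 and -1.31 in pre-p38i (limma adjusted p = 1.4e-05, 2.3e-05, 9.9e-06 and 6.3e-09). When only the compared groups were fitted, the calls of Fosl1 in p38i on both days and in pre-p38i on day 5 were lost. Junb differed by -0.75 and -0.29 in p38i and -0.41 and -0.72 in pre-p38i. The day 7 call of Junb in p38i was lost without DMSO day 7 replicate 2 or p38i day 7 replicate 2, and the day 5 call in pre-p38i without DMSO day 5 replicate 2 or pre-p38i day 5 replicate 1.

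On day 5, 1 of the 8 AP-1 genes was higher and 2 lower in p38i, beside 7.87% and 18.7% of all genes, and 3 were lower in pre-p38i, beside 11.3%. The p38i counts are near what these shares give for 8 genes. On day 7, 4 were higher and 2 lower in p38i, beside 16.5% and 17.6%, and 1 was higher and 4 lower in pre-p38i, beside 15.4% and 14.5%. Jund was called higher in both (0.42 and 0.28). The median differences on day 7 were 0.41 and -0.56, against 0.00 and 0.05 over all genes. On day 1, where the pre-p38i proliferin sum was already low, the 1 AP-1 gene called was Fos, which was higher in pre-p38i, while 5.4% of all genes were called higher and 6.24% lower in limma. In DMSO day 1 against MEF, where the proliferin sum was higher, 0 of the 8 AP-1 genes were called higher, beside 36.6% of all genes. Their median difference was -0.73, against 0.14 over all genes. Junb was lower there (-1.39) and Fosl1 did not pass (-0.21, limma adjusted p = 0.0781). In MEF p38i against MEF 2 AP-1 genes were higher, Jun and Jund, and 2 lower, Fosl1 and Junb. Of these, Fosl1 (-0.35) lost its call without MEF replicate 1 or either MEF p38i library.

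Of other secreted growth factors, epiregulin (Ereg), a ligand of the EGF receptor, also read lower in both treatments. It read 33 and 30 in DMSO day 5, 13 and 13 in p38i and 16 and 17 in pre-p38i, with differences of -1.21 and -0.89 (limma adjusted p = 2.5e-06 and 8.8e-05). On day 7 it read 24 and 24, 14 and 20, and 7 and 5. The day 7 difference of -0.49 in p38i lost its call without p38i day 7 replicate 1. Igf2, the growth factor that shares Igf2r with proliferin, went another way, with 156 and 163 in DMSO day 7, 300 and 307 in p38i and 112 and 103 in pre-p38i, and was higher in MEF p38i, at 2803 and 2750, than in MEF at 1888 and 1790. Of 13 growth and angiogenic factors tested, 2 were higher and 2 lower in p38i on day 5, and 4 higher and 1 lower on day 7, where 7.87% and 16.5% of all genes were called higher on these days. The shares called lower in p38i were 18.7% and 17.6%. In pre-p38i 3 were called lower on day 5 and 6 on day 7, beside 11.3% and 14.5% of all genes.

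The genes whose course over the 28 libraries was most like that of the proliferin sum were ranked by Pearson's r of log2(value + 1) among 10666 genes with a mean of at least 5. The first 10 were Nupr1 (0.93), Pcdh1 (0.90), Ecscr (0.88), Cd80 (0.87), Abcb1a (0.87), Ptk2b (0.87), Gpx3 (0.87), Pla2g7 (0.86), Plin2 (0.86) and Dcaf12l1 (0.85), where the median over all genes was 0.10. They include a stress-response nuclear protein (Nupr1), a protocadherin (Pcdh1), a drug efflux pump (Abcb1a), a secreted glutathione peroxidase (Gpx3) and a lipid droplet coat protein (Plin2). The 28 points are 14 pairs of libraries, and the MEF p38i pair lies far from the rest. Without it 3 of the 10 stayed among the first 10, namely Nupr1 (0.83), Plin2 (0.80) and Gpx3 (0.77).

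Nupr1 read 119 and 141 in MEF and 33 and 36 in MEF p38i. In DMSO it read 258 and 266, 256 and 243, 331 and 339, and 222 and 239 on days 1, 3, 5 and 7. In p38i it read 272 and 300 on day 1, above DMSO, and 141 and 135, 153 and 161, and 151 and 183 on the later days. In pre-p38i it read 136 and 119, 158 and 144, 146 and 173, and 93 and 100. Nupr1 and the proliferin sum were both highest on DMSO day 5 and were lowest in MEF p38i, and they differed on day 1 of p38i, where the proliferin sum was below DMSO at 61 and 57 against 122 and 139.

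**Figure D4:**
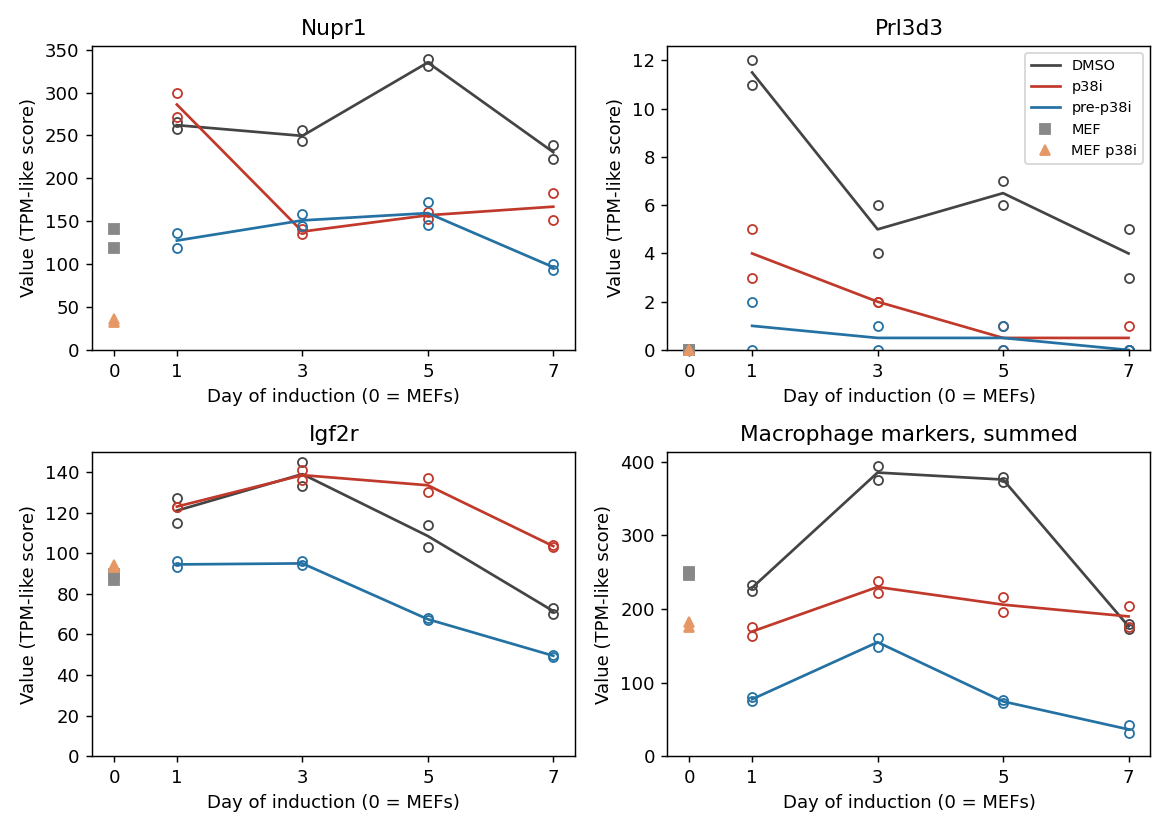
Values on the TPM-like scale (vertical axes, each with its own range) of Nupr1, Prl3d3, Igf2r and the summed macrophage markers by day of induction (horizontal axes), with MEFs at 0; open circles are libraries, lines join group means, and squares and triangles are MEF and MEF p38i. Prl3d3 is highest in DMSO on each day, Igf2r in p38i is above DMSO on days 5 and 7, and the macrophage sums of p38i and DMSO overlap on day 7, at 204 and 176 against 173 and 180, where 3 of its genes were called lower and 1 higher in p38i.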

How the data were processed

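RNA-seq was measured in 28 libraries, grouped by the labels. The score deposited by the authors is a whole number per gene, read from the totals as TPM rounded down. Per the labels' processing notes, bcl2fastq, Bowtie2 2.2.5 and RSEM 1.3.0 were used with mm10 and hg38 named as builds, and how multi-mapping reads were divided is not given in the sources used here. Linear models on log2(value + 1) were fitted over all 14 groups for the 13230 genes whose mean reached 1 (R 4.3.3, limma 3.58.1, trended eBayes), with the sum of the 3 proliferin genes in their place in a second fit, and genes under an adjusted p of 0.05 (Benjamini-Hochberg) were called. Simulated data for p38i against DMSO on day 5 (13187 genes) gave back 94 of 100 genes changed by 1 log2 unit and 100 of 100 changed by 2. Of the genes called in them, 5.83% were unchanged ones. Changes were planted only in genes above the low end of the scale, with independent normal noise. Recovery at low values was not measured. No 2 libraries were identical. Named genes are the members, fixed lists and the 10 most similar genes. Members and lists were chosen with earlier results of these data known, and Prl2c2 and Prl2c3 alone and tests of change between days were added after values were seen. Depth is unknown. Identities and windows were computed in Biopython 1.88 (Python 3.11.15) and plots drawn with matplotlib 3.10.9. Alternatives were quantile normalization, another pseudocount (0.1), another filter (a mean of 5, or none), a fit of the compared groups, a replicate block, the sum with Prl2c1, and leaving out each library.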

Additional observations from a re-analysis of the deposited data

How the results depend on the processing

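The sum stayed below DMSO, and past the threshold, in p38i and pre-p38i on days 5 and 7 under every alternative run, with highest adjusted p-values (limma) of 0.0172 and 0.0475 for p38i and 0.0285 and 0.0404 for pre-p38i. Of 144 recomputed values of tested differences of the sum 139 kept their direction and side of the threshold, and of 77 described ones 71 kept their direction and moved by less than the spread between replicates. Small differences that did not pass moved in size, such as that between p38i and pre-p38i on day 5, which lay between -0.25 and -0.0081. The day 7 difference between p38i and pre-p38i missed the threshold with a pseudocount of 0.1 (0.84), in a fit of only the compared groups (0.81), in Prl2c3 alone (0.43) and without pre-p38i day 7 replicate 2, and ranged from 0.46 to 1.17 when single libraries were left out.
Small differences changed sign. In p38i, the step from day 1 to day 3 was -0.31 in Prl2c3 alone and ranged from -0.023 to 0.073 with 1 library left out (negative without p38i day 1 replicate 2), and that from day 3 to day 5 was 0.030 in Prl2c2 alone. In DMSO, the step from day 3 to day 5 ranged from -0.011 to 0.29 (negative without DMSO day 3 replicate 1). The difference between p38i and DMSO on day 3 ranged from -2.06 to -1.76. Values against MEF p38i, which lies at 0 and 1, moved with the scale, to -6.41 (pseudocount of 0.1) and -3.74 (quantile normalization) for MEF p38i against MEF and to 6.29 and 3.46 for pre-p38i day 1 against MEF p38i. The change of the p38i and pre-p38i difference from day 5 to day 7 passed without pre-p38i day 7 replicate 1 (1.32, limma adjusted p = 0.0159).

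Replicate numbers did not pair the libraries (91 correlations between -0.0838 and 0.0874). With the replicate number as a block the differences of the sum were unchanged, at -2.10 for p38i and -1.95 for pre-p38i on day 5, and no call of the sum was changed.

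Of 540 recomputed counts of list genes 441 were within 1.5 times, and 49 of the 99 others came from the fit of only the compared groups, which has fewer samples. There, with main counts first, p38i on day 5 had 10 and 3 fibroblast and 6 and 3 macrophage genes called, pre-p38i on day 5 had 10 and 3 fibroblast genes, pre-p38i on day 7 had 6 and 2 macrophage and 5 and 1 AP-1 genes, and p38i on day 7 had 6 and 1 AP-1 genes. At a pseudocount of 0.1 the 6 epithelial calls of day 7 became 2 in p38i and 1 in pre-p38i. The shares of all genes called under these settings are not given, so the falls cannot be read as particular to the lists. Of 36 calls of Igf2r, Fosl1, Junb, Ereg and Igf2, for which the alternatives were added after values were seen, 15 were lost in that fit, Igf2r and Fosl1 in p38i on day 5 among them, and 5 when a single library was left out. No called list gene changed direction under quantile normalization. The depth of the libraries, which sets the error of low values, is unknown.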
